A study of Gossypium hirsutum with 6 samples.

Results

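Cellulose synthase and the membrane-anchored endoglucanase that works beside it were followed through fiber development in *Gossypium hirsutum* cv. TM1, an Upland cotton line. The members are 4 genes, read by name from a table of 12262 named features. They are the probe numbers GA_10dpa_fiberEST_02992 (cellulose synthase catalytic subunit) and GA_10dpa_fiberEST_10639 (membrane-anchored endo-1,4-beta-glucanase), called the EST CesA and the endoglucanase from here on, and the named array features GhCesA-1 and GhCesA-2. The EST CesA is listed both with its contig name and as a bare number, so the 4 genes have 5 entries. All 5 entries are among the 11882 features with a value at every stage.

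Fibers of TM1, grown in a greenhouse, were harvested at 8, 10 and 14 days post-anthesis (dpa), when the primary cell wall (PCW) is made and the fiber elongates, at 17 dpa, the transition, and at 21 and 24 dpa, when the secondary cell wall (SCW) is deposited. All groups are fibers of the same genotype with no treatment named, and the stages were hybridized against each other and 5 dpa fibers in a double loop of 2-colour oligonucleotide arrays. Every stage is given as 1 profile of log2 ratios to 5 dpa, so that 1 stands for a doubling and -1 for a halving relative to 5 dpa. The profiles hold no replicates, so no p-value was computed, and differences are read against the spread between entries of the same probe number. In these bulk samples, fewer cells of a type and less RNA per cell cannot be told apart.

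Cellulose is a polymer of glucose that is spun into microfibrils at the plasma membrane by complexes of cellulose synthase catalytic subunits (CesA). Plants carry separate sets of CesA genes for the primary and the secondary wall, and the cotton fiber, which fills its secondary wall almost purely with cellulose, is a classical source of the secondary wall genes. Sucrose synthase supplies the substrate UDP-glucose from sucrose, cortical microtubules made of tubulin guide the complexes, and actin cables carry them to the membrane. The membrane-anchored endoglucanase of the KORRIGAN family, known from *Arabidopsis*, is required for normal cellulose synthesis there.

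The gene descriptions of the EST CesA and the endoglucanase are matches to genes of other species. The former points to *Arabidopsis* CESA3, a subunit of the primary wall complex, and the latter to KORRIGAN. GhCesA-1 and GhCesA-2 are names of features on the array, and both names belong to cellulose synthases known from cotton fibers at secondary wall synthesis. In the RefSeq gene table of *G. hirsutum*, the synonym CesA1 belongs to 1 locus and CesA2 to 2 loci, whose synonyms mark them as the At and Dt copies of this tetraploid genome. Which of the 2 copies a probe reads was not settled here. The EST CesA and the endoglucanase also belong to a list of probes that the study chose partly on these TM1 profiles, so their membership of it is no independent evidence about their course. Among other criteria, the list required significant regulation during TM1 fiber development. The study tested this with linear models over repeated measurements of each gene and stage. That test could not be repeated from the single profiles.

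For the labelled tissue, fiber markers and 4 leaf control features for chlorophyll a/b binding proteins were read. Expansin 1 (GA_10dpa_fiberEST_00974), a wall-loosening protein, and beta-tubulin (GA_10dpa_fiberEST_07246) were above the buffer signal in all 12 scanner files, and the late fiber gene FbL2A was above it in 7 of 12. All 3 markers were at least 2-fold above 5 dpa at 14, 17, 21 and 24 dpa, as were 3.79%, 5.9%, 5.97% and 11.3% of all features. A further beta-tubulin probe (GA_10dpa_fiberEST_11289) had log2 ratios of 0.84, 0.93, 1.08 and 0.80 at these stages. The 5 dpa reference is also fiber, so a rise over it cannot check the identity of the tissue. The leaf controls were above the buffer in 8 to 11 of 12 files, more than FbL2A, and ranged from -0.61 to 0.49 at 24 dpa. The transgene control GFP, foreign to cotton, was above it in 11 files, GUS and npt-II in 8 each, and hph and aaacC1 in 2 each. A signal above the buffer is therefore no proof of expression.

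The EST CesA stayed within 2-fold of 5 dpa at all 6 stages. Its contig entry had log2 ratios of 0.46, 0.22, 0.31, 0.11, 0.14 and 0.43 in stage order from 8 to 24 dpa. Its bare entry had 0.54, 0.35, 0.34, 0.30, 0.46 and 0.84 in the same order. Both entries were above 0 at every stage and lowest at 17 dpa, and the bare entry was the higher of them throughout. Of all features, 17.5% were above 0 at all 6 stages, and 67.7% stayed within 2-fold throughout. The highest value was that of 8 dpa in the contig entry and that of 24 dpa in the bare entry. The whole range over the stages was 0.35 log2 in the contig entry and 0.53 log2 in the bare entry.

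The difference between the entries of the EST CesA is used here as a measure of error. Whether the 2 entries of a probe number carry the same sequence could not be checked, so their difference may hold more than error. The bare entry is printed at 3 positions on the array with 6 spots in all, and the contig entry at another position with 2 spots. The log2 difference between them from 8 to 24 dpa was 0.083, 0.13, 0.027, 0.19, 0.31 and 0.40. Among all 17 probe numbers with such a pair of entries, the median absolute difference grew from 0.13 at 8 dpa to 0.25, 0.32, 0.42 and 0.40 at the following stages and to 0.62 at 24 dpa. The pair of the EST CesA was thus below the median pair at every stage. At 24 dpa 6 of the 17 pairs were 2-fold or more apart, and the widest pair differed by 4.49. When the stages of either of its entries were put in order of level, no neighboring pair of stages differed by more than the median pair of entries did for the same 2 stages. That order keeps neighboring gaps small. In time order, the steps from 8 to 10 dpa were -0.24 (contig entry) and -0.19 (bare entry), beside a median of 0.18. Of the pairs, 7 and 8 differed as much. From 21 to 24 dpa they were 0.29 and 0.38, beside 0.21, and 6 pairs differed as much in each case. The contig entry also passed the median from 14 to 17 dpa, with -0.20 beside 0.16. The bare entry did from 17 to 21 dpa, with 0.16 beside 0.14.

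**Figure D1:**
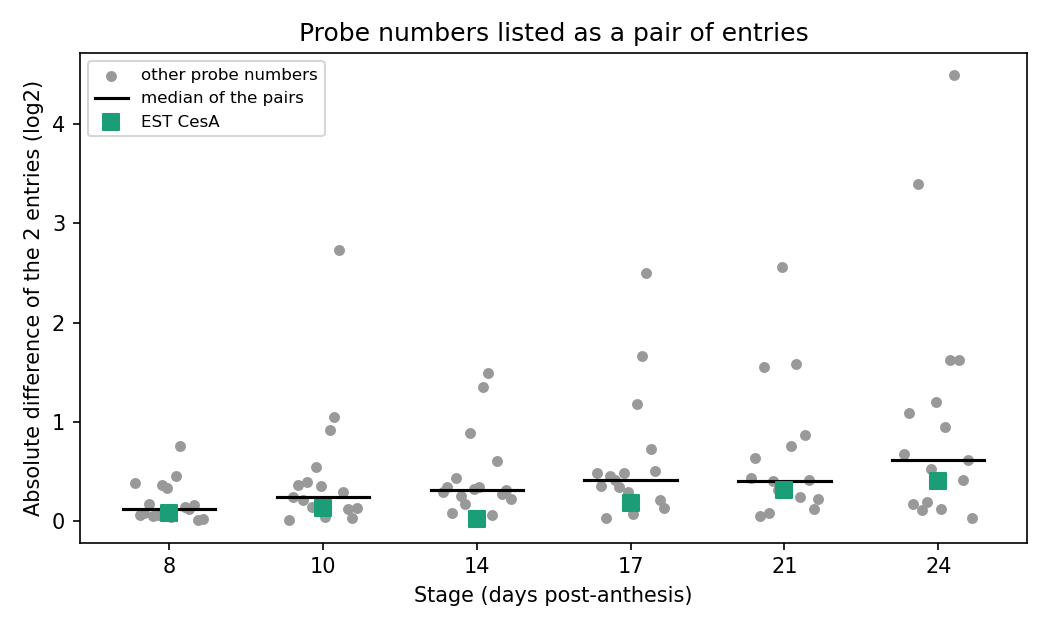
Absolute log2 difference between the 2 entries of a probe number (vertical axis) at each stage in dpa (horizontal axis). Grey points are the other probe numbers of the 17 with a pair, black lines the medians over the 17, and the green squares the EST CesA, whose difference lies below the median at all 6 stages and reaches 0.40 at 24 dpa.

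The membrane-anchored endoglucanase also stayed within 2-fold of 5 dpa. Its log2 ratio over the 6 stages in order was 0.39, 0.11, 0.11, 0.12, 0.28 and 0.88. The value at 24 dpa, a ratio of 1.84, was its highest, and 1550 of all features were higher there. It stood 0.49 above the next value, that of 8 dpa, while the median pair of entries differed by 0.32 in the same comparison and 8 of the 17 pairs differed as much. The values at 10, 14 and 17 dpa were all but equal, and each differed from the next by less than the median pair. In time order, the endoglucanase changed by -0.28 from 8 to 10 dpa and by 0.16 from 17 to 21 dpa. The median pair differed by 0.18 and 0.14 there, and 7 and 8 of the 17 pairs differed as much. From 21 to 24 dpa it rose by 0.60, beside a median of 0.21, and 5 of the 17 pairs differed as much.

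GhCesA-2, a secondary wall cellulose synthase, was 2-fold or more above 5 dpa at 24 dpa and at no earlier stage. Its log2 ratio in stage order was 0.39, 0.26, 0.35, 0.54, 0.36 and, at 24 dpa, 1.71. The first 5 values lay close together, and the value at 24 dpa, a 3.26-fold level, stood apart. Between 21 and 24 dpa the log2 ratio rose by 1.35, a 2.55-fold step, and 5.55% of all features rose by more. Of the 17 pairs of entries, 3 differed by as much in that step, whose median difference was 0.21. The order of the stages by level placed 24 dpa above 17 dpa by 1.17, beyond the median pair difference of 0.22. All other neighboring stages in that order lay within their median pair difference. In time order, the steps from 14 to 17 and from 17 to 21 dpa were 0.18 and -0.18, beside medians of 0.16 and 0.14. Of the 17 pairs, 5 and 7 differed as much in these steps. At 24 dpa 592 of the 11882 features were higher than GhCesA-2. Among the 4200 features above the buffer in every scanner file, to which it belongs, 82 were higher. A 2-fold rise at 24 dpa with every earlier stage within 2-fold was found in 4.38% of all features and in 1.40% of those 4200. The value of 1.71 also lay inside the range of the 5 transgene control features at 24 dpa, from -1.06 to 3.58, of which 3 were 2-fold or more higher. Of these, GUS had a similar course, with values from -0.46 to -0.17 before 24 dpa and 2.66 at that stage. The part of whatever raised these controls in the value of GhCesA-2 was not tested.

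GhCesA-1 had the widest listed course of the 5 entries, on a signal that was not above the buffer in 9 of 12 scanner files. Its log2 ratio was listed as 2.98 at 8 dpa, then -2.14, -1.70 and -1.93 at the following 3 stages, 3.81 at 21 dpa and 7.30 at 24 dpa. These values are given as deposited, with no fold change, since the probe was below the buffer in every file of the 8, 10, 14 and 17 dpa samples. The listed values differed by -5.12 between 8 and 10 dpa and by 5.74 between 17 and 21 dpa, and none of the 17 pairs of entries differed by as much in either step, their widest differences being 2.59 and 2.74. Between 21 and 24 dpa the difference was 3.49, which 2 of the 17 pairs equalled or exceeded. The pairs were not matched to GhCesA-1 in signal, so their spread may not be the error of so weak a feature. The listed value was 2-fold or more from 5 dpa at all 6 stages, as in 1.02% of the features. A 2-fold higher value at some stage with a 2-fold lower value at another was found in 318 features (2.68%).

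**Figure D2:**
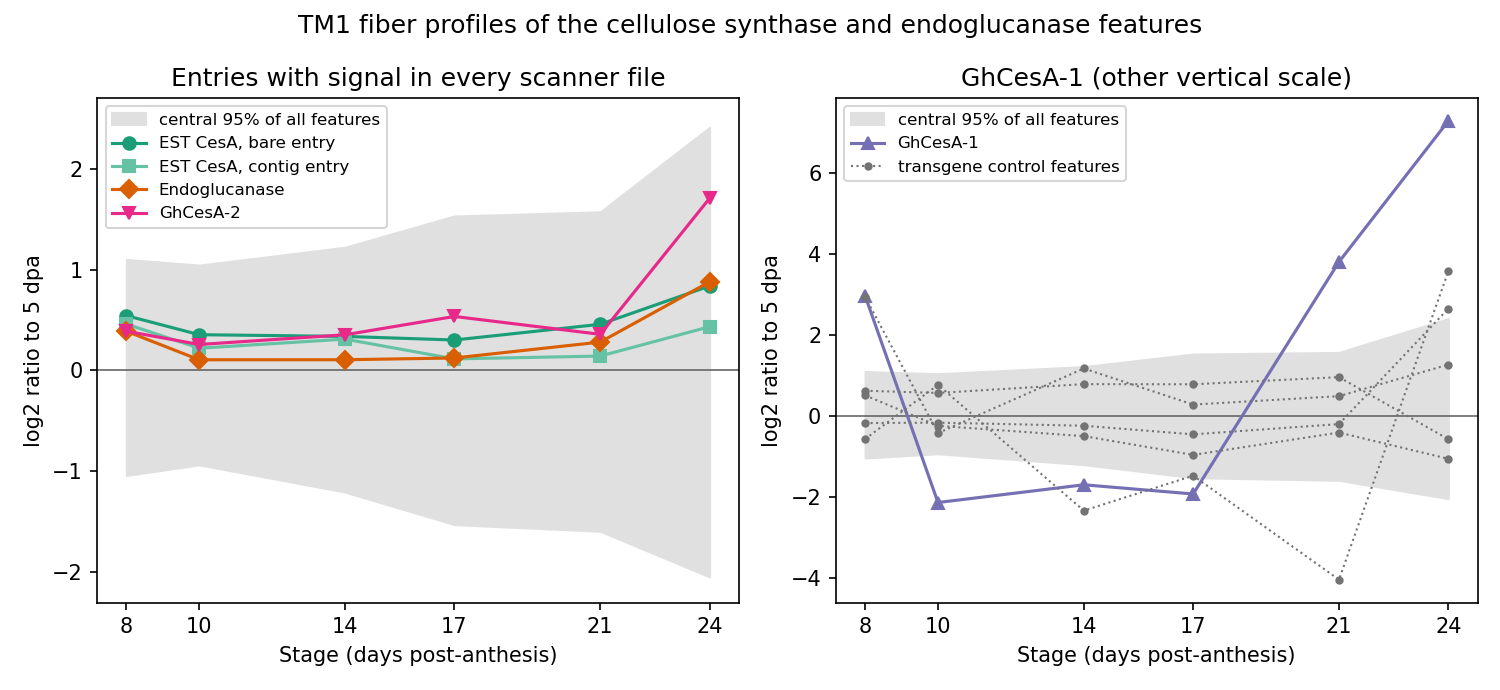
Log2 ratio to 5 dpa (vertical axis) at each stage in dpa (horizontal axis), with the central 95% of all features in grey. On the left, GhCesA-2 leaves the other entries at 24 dpa with 1.71; on the right, at another vertical scale, the listed values of GhCesA-1 go from 2.98 to -2.14 between 8 and 10 dpa and end at 7.30 beside the 5 transgene control features.

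Counted over the 5 entries, 1 was 2-fold or more from 5 dpa at 8 dpa, where 5.97% of all features were (3.2% higher and 2.77% lower). At 10 dpa it was again 1 of 5, beside 4.9% of all features (2.82% higher and 2.08% lower). The count was 1 of 5 at 14 dpa, beside 8.05% (3.79% higher and 4.26% lower), and at 17 dpa, beside 13% (5.9% higher and 7.09% lower). At 21 dpa it was 1 of 5, beside 13% (5.97% higher and 7.02% lower). In each of these cases the entry was GhCesA-1, listed as higher at 8 and 21 dpa and as lower at the stages between. At 24 dpa 2 of the 5 entries, GhCesA-1 and GhCesA-2, were 2-fold or more higher and none was lower, beside 23.6% of all features (11.3% higher and 12.3% lower). A count over 5 entries is coarse, and the members are described singly.

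The signal behind the profiles was read from the scanner files. These are 12 files of 1 dye each, from 7 arrays of the double loop, with 5 arrays present in both dyes, and the other arrays of the loop were not analysed here. A feature was counted as above the buffer when its background-corrected signal, averaged over the spots not flagged by hand, exceeded the median of the buffer spots plus 3 scaled median absolute deviations. Signals are compared here with that threshold and never between features. The study itself excluded spots below the buffer mean plus 3 SD, which as recomputed here was a higher limit in these files.

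Both entries of the EST CesA, the endoglucanase and GhCesA-2 were above the buffer in 12 of 12 files. The signal of GhCesA-2 was between 2.87 and 12.1 times the threshold, and 5 of its 72 spots were flagged. The bare entry of the EST CesA was between 1.62 and 14.0 times the threshold, the contig entry between 2.08 and 26.9 times, and the endoglucanase between 2.91 and 16.7 times, with no flagged spot in any of the 3. These are the features that stayed within 2-fold of 5 dpa at all stages or, for GhCesA-2, before 24 dpa. The buffer mean plus 3 SD was also recomputed here and set against the averaged signal. The bare entry was above it in 0 files, the contig entry in 1, the endoglucanase in 2 and GhCesA-2 in 1. This limit was above the median corrected signal of every file, for example 1949 against 201 in the Cy3 file of 10 dpa. The share of all features past it was not computed. These entries kept deposited values at every stage, so this limit may differ from the filter as the study applied it.

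GhCesA-1 was above the buffer in 3 of 12 files, and in 0 by the recomputed mean plus 3 SD. Its signal was 1.09 times the threshold in the Cy5 file of 21 dpa, 1.52 times in the Cy3 file of 24 dpa and 1.58 times in the Cy5 file of 24 dpa. In the other 9 files it was below the threshold, and in 3 of them the mean corrected signal was negative. Of its 72 spots 36 (50%) were flagged, and in the array of 8 dpa 5 of 6 were, although the deposited value at 8 dpa is 2.98. With flagged spots kept, it was above the buffer in 0 of 12 files. The 3 files above the buffer come from the arrays filed under 21 and 24 dpa, whose dyes cannot be assigned to a stage here. In the Cy5 file of 24 dpa 1 of 3 unflagged spots was above it, and the Cy3 signal of the 21 dpa array was negative. The part of the weak signal in its profile was not tested.

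**Figure D3:**
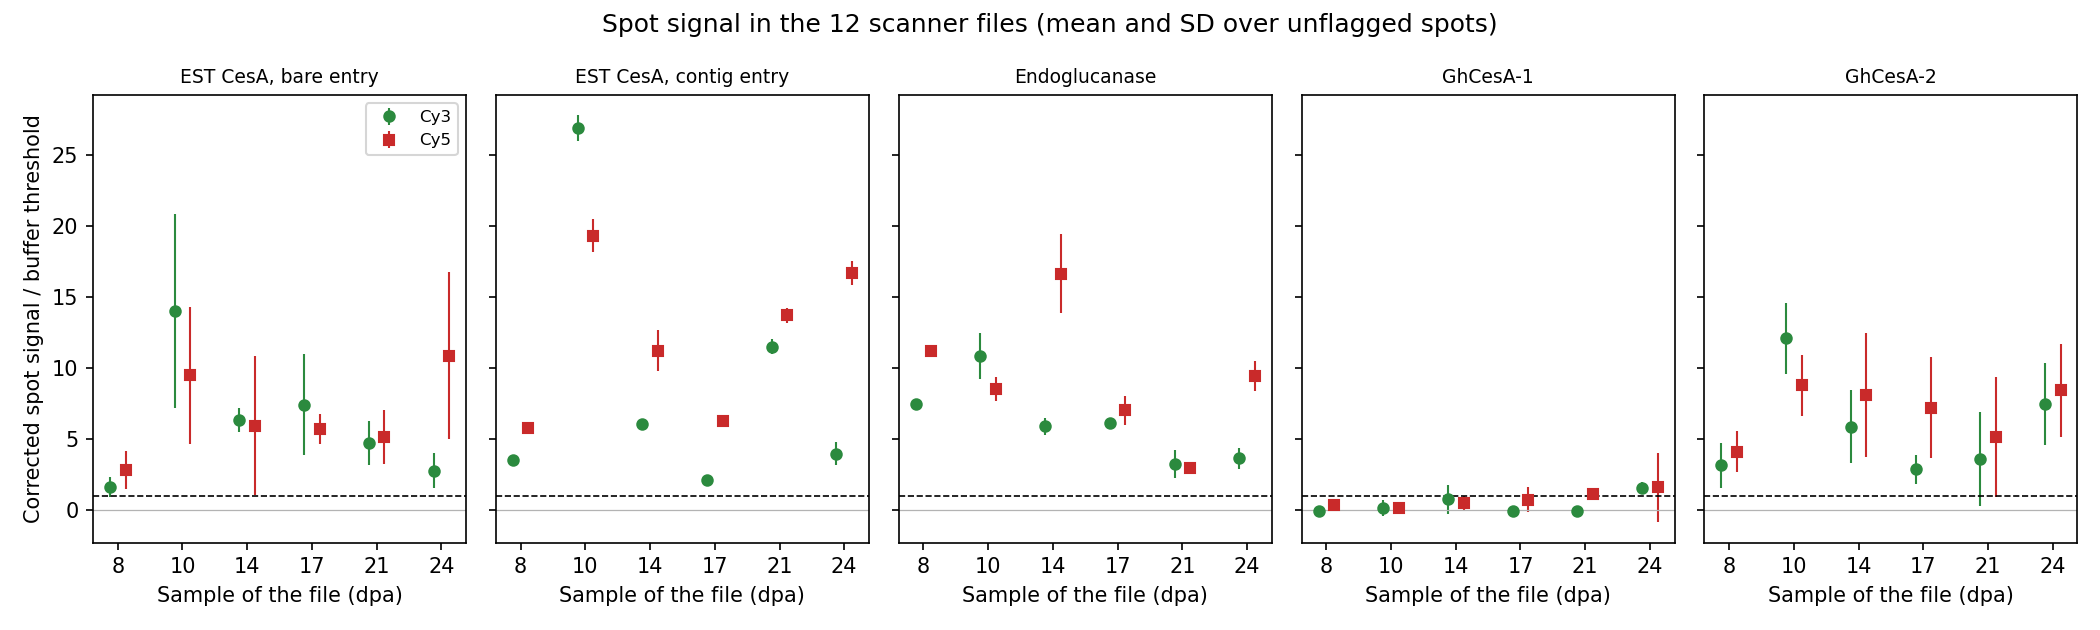
Background-corrected signal divided by the buffer threshold of the file (vertical axis) for the 12 scanner files, placed by the stage of their sample in dpa (horizontal axis) and coloured by dye; points are means and bars SDs over unflagged spots. GhCesA-1 stays near or below the dashed line at 1, which it passes in 3 files, and the other entries are above it in all 12.

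Features as weak as GhCesA-1 had wide profiles as a class. Among the 946 features above the buffer in 1 to 3 files, 50.5% were 2-fold or more from 5 dpa at 24 dpa, against 12.6% of the 4200 features above it in all 12. At 8 dpa the shares were 21.5% and 1.26%. A 2-fold higher level at some stage together with a 2-fold lower level at another was found in 11.6% of the 946 weak features and in 8 of the 4200. Within the weak class, 15 features, GhCesA-1 itself included, were as far from 0 as GhCesA-1 at 8 dpa, 35, 77 and 85 at the next 3 stages, 14 at 21 dpa and 5 at 24 dpa. GhCesA-1 belongs to this class only through files of the 21 and 24 dpa samples. Among the 318 features above the buffer in 0 files, 36.2% were 2-fold or more from 5 dpa at 8 dpa and 72.6% at 24 dpa. Of those 318, 14 were as far from 0 as GhCesA-1 at 8 dpa and 36, 74 and 65 at the next 3 stages. At 21 and 24 dpa 11 and 2 were. The values of GhCesA-1 at 10, 14 and 17 dpa were thus less unusual among weak features than those at 8, 21 and 24 dpa. The 5 transgene control features ranged from -0.57 to 2.95 at 8 dpa and from -4.05 to 0.96 at 21 dpa. The 2.98 of GhCesA-1 at 8 dpa lay next to the 2.95 of the control hph. Its 3.81 at 21 dpa was higher than every control, but the control aaacC1, at -4.05, lay farther from 0. Its 7.30 at 24 dpa lay farther from 0 than every control of that stage.

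The 5 arrays with both dyes allowed ratios to be computed for single hybridizations. The labels leave unsettled to which stage a dye belongs, so only the size of the log2 ratio is given, with the SD over the spots of a feature on the array, which is technical error within the array. These ratios followed the profiles only in part. Across features, the unsigned correlation with the profile of the same stage was 0.42, 0.38, 0.66 and 0.61 for the arrays of 8, 10, 21 and 24 dpa. For the array of 10 dpa it was 0.45 with the 14 dpa profile. In the array of 24 dpa, GhCesA-2 had a log2 dye ratio of 1.67 ± 0.29 (SD, 5 spots). Its 3 printed positions gave 1.92, 1.62 and 1.24 in the same direction. This was a 3.17-fold difference, and 6.98% of 11803 features were 2-fold or more apart on that array. The size depended on the processing. It was 2.09 with plain subtraction of the local background, 1.68 without background correction and 1.19 with centring on the median in place of loess. The corrected signal of GhCesA-2 there was 279 in Cy3 and 421 in Cy5, while the medians of the 2 dyes were 32.8 and 269. In the arrays of 8, 10 and 21 dpa its ratio was 0.055 ± 0.14, 0.27 ± 0.060 and 0.21 ± 0.13 (SD, 6 spots each). In the array shared by the samples of 14 and 17 dpa it was 0.16 ± 0.086 (SD, 5 spots). The array of 24 dpa was therefore the only one of the 5 in which GhCesA-2 differed by 2-fold or more between the dyes.

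The endoglucanase had its largest dye ratio in the same array, with 0.76 ± 0.084 (SD, 2 spots), followed by 0.26 ± 0.0094 in that of 8 dpa and 0.18 ± 0.062 in that of 10 dpa (SD, 2 spots each). With centring on the median in place of loess this order turned, with 0.65 in the array of 8 dpa and 0.26 in that of 24 dpa. Of the EST CesA the bare entry gave 0.35 ± 0.26 (SD, 6 spots) and the contig entry 0.13 ± 0.28 (SD, 2 spots) in the array of 24 dpa, and these values overlapped. In the array of 10 dpa they were 0.35 ± 0.14 and 0.49 ± 0.035 (SD, 6 and 2 spots). In the array of 21 dpa they were 0.0084 ± 0.18 and 0.029 ± 0.015.

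The dye ratios of GhCesA-1 rested on 1 to 3 unflagged spots. In the array of 24 dpa its log2 dye ratio was 0.93 ± 0.064 (SD, 3 spots), in that of 21 dpa 0.38 ± 0.050 (SD, 3 spots), in that of 10 dpa 0.0048 ± 0.028 (SD, 3 spots), and in that of 8 dpa 0.10 from the single unflagged spot. With plain subtraction of the local background in place of the normexp correction, which adds an offset of 50, its ratio was 3.28 at 24 dpa and 3.01 at 21 dpa, and at 8 dpa no ratio could be formed. The size of its dye ratio thus depended on the background correction, and beside its profile values of 7.30 and 3.81 at those stages neither setting gave as large a ratio. The arrays may hold other pairs of stages than those values do. The dyes of the 24 dpa array were also unequal, with a median corrected signal of 32.8 in Cy3 and 269 in Cy5.

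**Figure D4:**
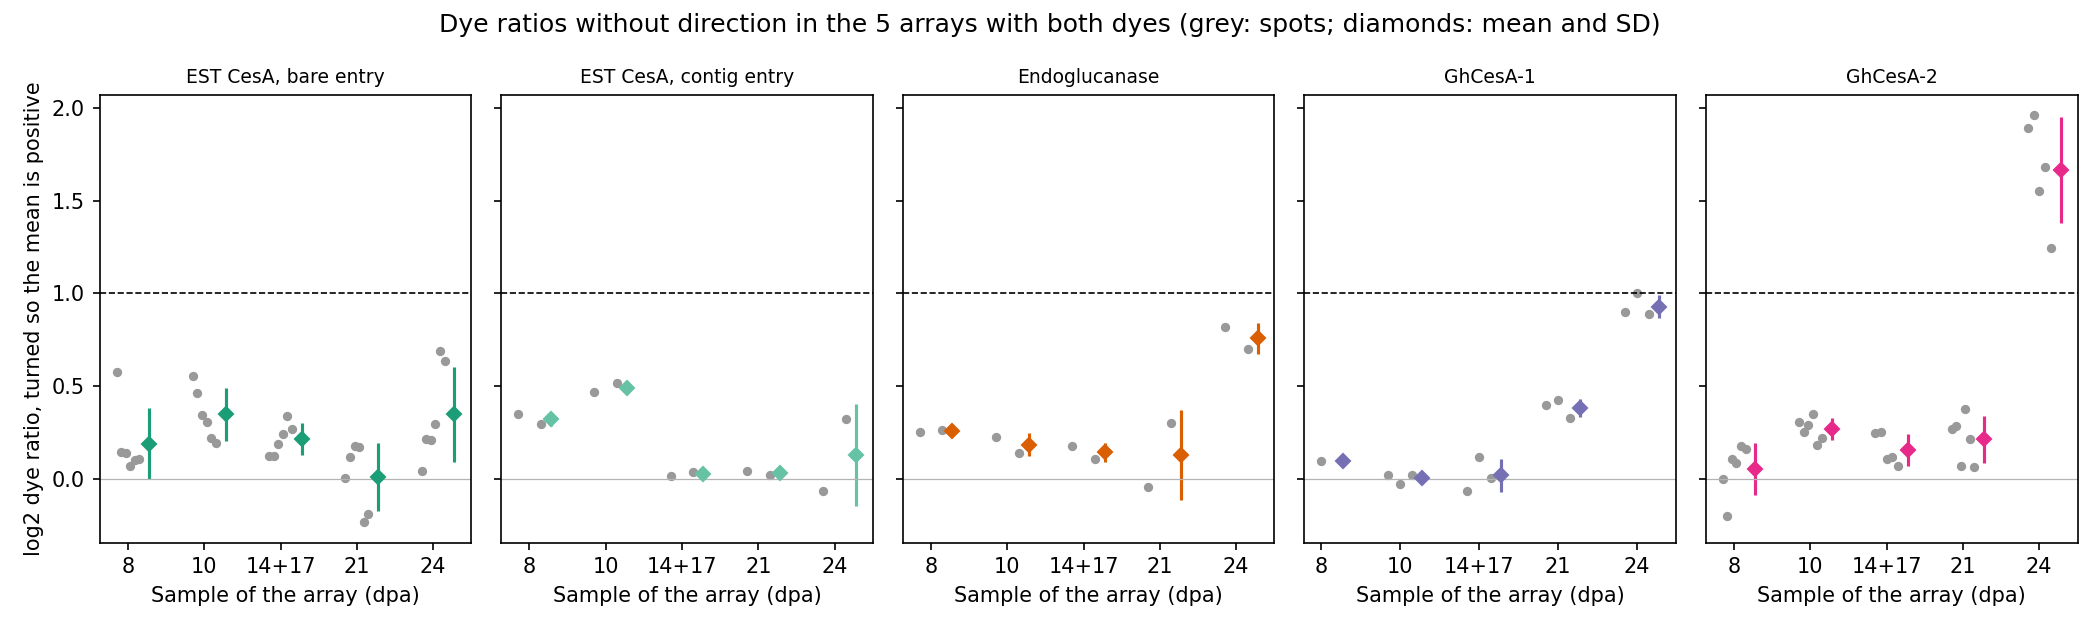
Log2 dye ratio without direction (vertical axis, turned so that each mean is positive) in the 5 arrays with both dyes, placed by the stage of their sample in dpa (horizontal axis); grey points are unflagged spots, diamonds and bars their mean and SD. The dashed line marks 2-fold, which the mean of GhCesA-2 passes in the array of 24 dpa with 1.67 ± 0.29.

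The wall phases were compared by the mean log2 ratio over 21 and 24 dpa (SCW) minus that over 8, 10 and 14 dpa (PCW). GhCesA-2 had a PCW mean of 0.33 and an SCW mean of 1.03, a difference of 0.70, and 9.17% of all features had a higher one. For the endoglucanase the means were 0.20 and 0.58, a difference of 0.38. For the EST CesA the difference was -0.042 in the contig entry and 0.24 in the bare entry, and these opposite signs lay within the median pair difference of 0.32. GhCesA-1 had a PCW mean of -0.29, made of values of both signs, and an SCW mean of 5.56, a difference of 5.85 that 0.0168% of the features exceeded. Of the 17 pairs of entries, none differed by as much as GhCesA-1, to which they were not matched in signal. By as much as GhCesA-2 3 pairs differed, and 5 by as much as the endoglucanase. Without the 24 dpa profile the difference of GhCesA-2 was 0.025, so that it rested on that stage.

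Among the genes that act with cellulose synthase, sucrose synthase and actin were below 5 dpa at 24 dpa. Both beta-tubulin probes stayed above 5 dpa at all 6 stages, as did the EST CesA, the endoglucanase and GhCesA-2. Of 5 such probes, 1 was 2-fold or more higher and 2 were 2-fold or more lower at 24 dpa, where 11.3% of all features were higher and 12.3% lower, and their median log2 ratio was -0.98, beside -0.0056 over all features. Both probes for sucrose synthase fell, with -2.41 (GA_10dpa_fiberEST_00620) and -2.68 (GA_10dpa_fiberEST_10590) at 24 dpa in the entries with a contig or EST name and with -1.73 and -2.49 in their bare entries. The beta-tubulin probes GA_10dpa_fiberEST_07246 and GA_10dpa_fiberEST_11289 had 1.01 and 0.80, and actin (GA_10dpa_fiberEST_04501) had -0.98. The SCW minus PCW differences of the beta-tubulin probes were 0.17 and 0.33. Of 4 other wall probes, 3 were 2-fold or more higher and 1 lower at 14 dpa, beside 3.79% and 4.26% of all features. At 24 dpa 2 were higher and 0 lower, beside 11.3% and 12.3%, with a median of 0.45. The higher ones at 24 dpa were expansin 1 with 1.06 and xyloglucan endotransglycosylase (GA_10dpa_fiberEST_12158), which cuts and rejoins the xyloglucan that ties microfibrils together, with 2.06. The beta-galactosidases GA_10dpa_fiberEST_03757 and GA_10dpa_fiberEST_04269 had -0.19 and -0.17 at 24 dpa after opposite courses, the former from 1.51 at 8 dpa and the latter from -1.49 at 17 dpa. All 9 probes, like the members, were chosen with earlier results of these data known, and all were above the buffer in 10 to 12 files.

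**Figure D5:**
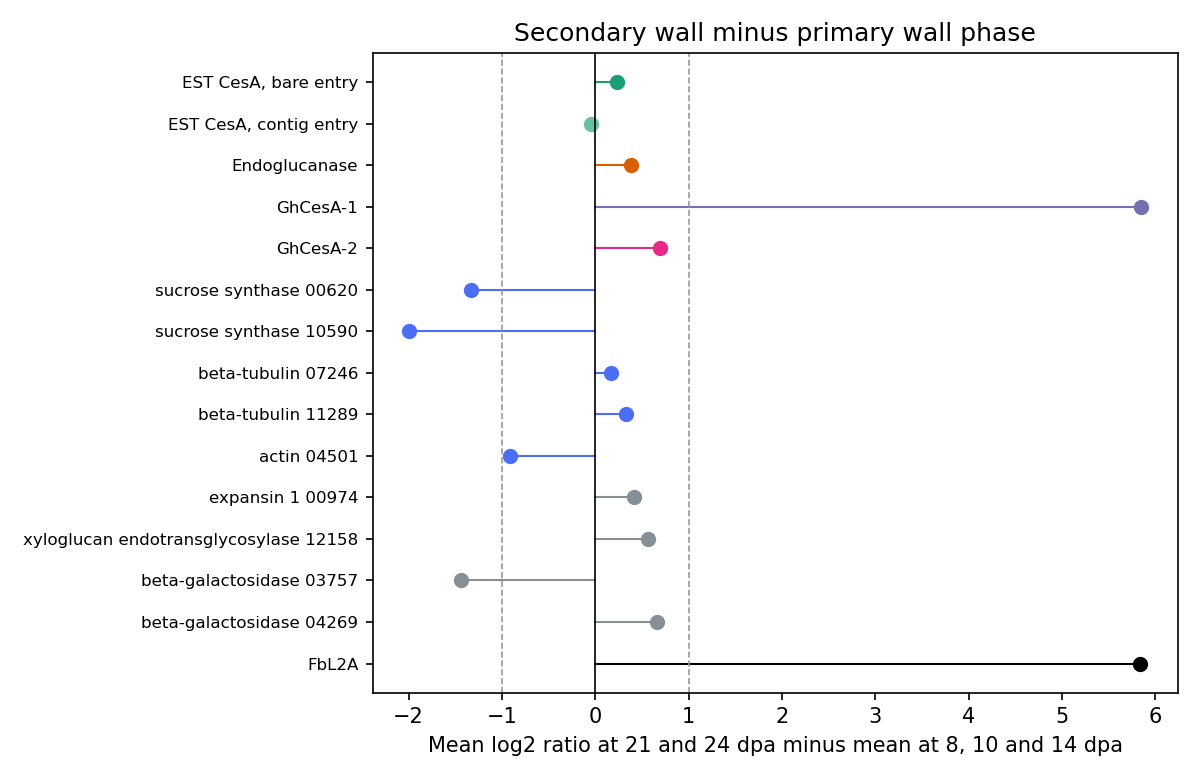
Difference between the mean log2 ratio at 21 and 24 dpa and that at 8, 10 and 14 dpa (horizontal axis) for the member entries, the 5 probes for genes that act with cellulose synthase, 4 other wall probes and FbL2A; dashed lines mark 2-fold. GhCesA-1 and FbL2A lie at 5.85 and 5.84, GhCesA-2 at 0.70, and both sucrose synthase probes below -1.

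The likeness of whole profiles was measured as the Euclidean distance over the 6 log2 ratios. The bare entry of the EST CesA and the endoglucanase lay 0.451 apart and the contig entry and the endoglucanase 0.526 apart, both closer than the 2 entries of the EST CesA were to each other, at 0.568. Over the 17 pairs of entries the median distance was 1.06. GhCesA-2 was 0.924 from the bare entry of the EST CesA and 0.972 from the endoglucanase. GhCesA-1 was between 8.12 and 8.99 from every other member entry, beyond the widest pair of entries at 5.82, though the pairs were not matched to it in signal. The features with a gene name were named array features and the described probes of the study's list, which was chosen partly on these TM1 profiles. Being nearest among them is therefore no independent evidence of likeness. Among the 88 or 89 such features other than the entry's own, the endoglucanase was the nearest to either entry of the EST CesA, and the bare entry of the EST CesA was the nearest to the endoglucanase. The next were calmodulin NtCaM10 (GA_10dpa_fiberEST_12408), a calcium sensor, at 0.676 from the bare entry, and a putative beta-ketoacyl-CoA synthase (GA_10dpa_fiberEST_12309), an enzyme of fatty acid elongation, at 0.832. For the contig entry they were the same calmodulin at 0.854 and a putative PCF2-like DNA binding protein (GA_10dpa_fiberEST_12200) at 0.940, and for the endoglucanase the contig entry of the EST CesA and the calmodulin at 0.758. These flat profiles had many neighbors, since 93 of all features were nearer to the bare entry of the EST CesA than the endoglucanase was, and 673 were nearer to the contig entry.

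The nearest named feature to GhCesA-2 was an oxylase-like protein (GA_10dpa_fiberEST_00722) at 0.764, with log2 ratios of 0.61 at 21 dpa and 1.95 at 24 dpa, and 83 of all features were nearer. It was followed by the bare entry of the EST CesA and by the endoglucanase. The nearest to GhCesA-1 were a WD-repeat protein (GA_10dpa_fiberEST_07368) at 6.15, FbL2A at 6.38 and GA_10dpa_fiberEST_00099, whose description names a genomic clone, at 7.15, so that none was close. FbL2A had its highest values at the same stages, with 4.88 at 21 dpa and 7.83 at 24 dpa, but had -0.50 at 8 dpa, where GhCesA-1 had 2.98.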

How the data were processed

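The deposited table holds log2 ratios to 5 dpa, 1 column per stage. These are coefficients of LIMMA's linear models over a double loop of arrays with dye swaps, after manual flagging, background subtraction, filters on buffer signal and on divergent dye swaps, and lowess. The scanner files, as deposited, give intensity means for spots and local backgrounds, with flags and without normalization. Of 12263 entries, 1 named n/a was left out. A 2-fold difference (log2 of 1) was called without a test, since each stage has 1 profile. The number of arrays limits the precision.

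Dye ratios used limma 3.58.1 in R 4.3.3 (normexp, offset 50, loess without flagged spots), tested on simulated data. Profiles used pandas 2.3.3. The members and lists were chosen with earlier results of these data known. Named genes were all member entries, the 3 nearest named features of each by Euclidean distance, and both lists. RefSeq synonyms are those of assembly Gossypium_hirsutum_v2.1. Alternatives covered fold thresholds, centring, placement of 17 dpa, the buffer threshold, background correction and likeness by correlation.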

Additional observations from a re-analysis of the deposited data

How the results depend on the processing

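No paired analysis was possible because each stage has 1 profile, and no replicate could be left out. The SCW minus PCW difference of the EST CesA contig entry, -0.042, turned to 0.0115 with 17 dpa counted as PCW and to 0.24 with the other entry, within the spread of the pairs, and no other signed value changed its sign. Centring each profile on its median, or using the other entry of the EST CesA or the mean of both, moved no result by more than its spread. At a 1.5-fold threshold 4 of the 5 entries were called at 24 dpa. The SCW minus PCW difference of GhCesA-1 was 3.35 with 17 dpa counted as SCW, 6.26 with it as PCW and 4.10 without 24 dpa, and that of GhCesA-2 was 0.025 without 24 dpa. The buffer mean plus 3 SD, as recomputed here, lay above the median corrected signal of every file. With it as the threshold, the EST CesA was above it in 0 files (bare entry) and 1 file (contig entry), the endoglucanase in 2, GhCesA-1 in 0 and GhCesA-2 in 1. The share of all features past it was not computed. With flagged spots kept GhCesA-1 was above the buffer in 0 files. In the array of 24 dpa, 1 entry had a dye ratio of 2-fold or more, and 2 had under subtraction, without background correction and with median centring; in that of 21 dpa 1 had under subtraction. The cause was not tested. Likeness by Pearson correlation kept 1 of the 3 nearest named features for each entry, and 0 for GhCesA-1. The shares of features called at each stage fell to between 1.02% and 12.6% among features above the buffer in every file. The comparison within classes of signal and that of printed positions were chosen after seeing the data. Signal over background limits GhCesA-1, which was not above the buffer in 9 of 12 files.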
